A study of Mus musculus with 18 samples.

Results

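Methotrexate in the lean liver was examined in 9 male C57BL/6 mice kept on a 10% low-fat diet (LFD) from 6 weeks of age. After 10 weeks on that diet, 5 mice received 5 rounds of intraperitoneal methotrexate at 50 mg/kg (LFD MTX50) and the livers were taken 1 week after the last injection, while 4 mice received no treatment (LFD). These are 9 of 18 arrays, chosen by their labels alone. The other 9 hold high-fat-fed mice without (HFD, 4) and with (HFD MTX50, 5) the same drug. Their levels are described only where the effect of methotrexate was compared between the diets. All 18 arrays shared 1 fit, so these mice also entered the estimate of spread behind every SE and adjusted p. Each array measured the total RNA of 1 whole liver, so fewer cells of a type and less RNA per cell cannot be told apart. The labels name no vehicle injection for the untreated mice.

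Methotrexate is an antifolate that limits the supply of folate for thymidylate and purine synthesis, and it is also known for injury to the liver. The liver makes most plasma proteins, synthesizes and exports fat, and disposes of drugs and bile acids. In rodents many hepatic genes differ between the sexes because males secrete growth hormone in pulses, which act through the transcription factor STAT5, and females secrete it more continuously. Inflammatory signals to hepatocytes raise a set of secreted acute phase proteins, and the hepatic clock sets a daily rhythm on lipid, bile acid and drug metabolism.

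Levels are given as log2 intensity relative to the 75th percentile of the same array, so that a level of 0 is a bright but unexceptional probe and a difference of 1 is 2-fold. In LFD mice 83.9 to 88.4% of probes lay well above background, and in LFD MTX50 mice 85.5 to 88.9%. Pearson correlations between an array and its group lay between 0.986 and 0.989 for LFD and between 0.982 and 0.989 for LFD MTX50. The hepatocyte product Alb lay between 8.17 and 8.46 in all 9 livers, and the male Y-linked gene Ddx3y between 0.88 and 1.14. The 4 LFD arrays shared 1 slide, LFD MTX50 mice 1 to 4 shared another and mouse 5 lay on yet another, so slide and treatment cannot be told apart.

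Of 19608 genes tested, 1138 (5.8%) passed an adjusted p of 0.05 with a 2-fold change on some probe, 660 of them higher and 482 lower in LFD MTX50, with 4 counted in both directions. Read on the brightest probe alone, which is how single genes and gene lists are given here, 5504 genes (28.1%) passed the adjusted p without a fold threshold, 3451 (17.6%) higher and 2053 (10.5%) lower, and with the fold threshold 492 (2.51%) were higher and 438 (2.23%) lower. The counts of each gene list below are to be read beside these shares of 17.6% higher and 10.5% lower. The median gene differed by 0.11 on the log2 scale. With slide as a random block, 340 genes (1.73%) passed the adjusted p. Quantile normalization and scaling to the median of probes detected on all arrays took the median difference of all probes from 0.16 to 0.03 and 0.06, and with them the share of 2-fold genes that were higher fell from 57.8% to 31.6% and 41.0%. A normexp background model took that median to 0.67 with 35.5% of 2-fold genes higher, so the balance of rises and falls over all genes depended on these choices.

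Promoter windows of 4 genes described here are shown first, for the metal response element core in both metallothioneins, the STAT5 half-sites joined in Cish and the E-box of clock-driven genes in Ciart. Each runs from 250 bases before to 50 after the transcription start, from RefSeq on build GRCm38.p6, read 5′ to 3′ on the strand of the gene, with matches on either strand in capitals. The letters searched were TGCACNC or TGCGCNC for the metal response element core, TTCNNNGAA for the STAT5 site and CACGTG for the E-box.
Mt1, chr8:94178839-94179138, plus strand, metal response element core: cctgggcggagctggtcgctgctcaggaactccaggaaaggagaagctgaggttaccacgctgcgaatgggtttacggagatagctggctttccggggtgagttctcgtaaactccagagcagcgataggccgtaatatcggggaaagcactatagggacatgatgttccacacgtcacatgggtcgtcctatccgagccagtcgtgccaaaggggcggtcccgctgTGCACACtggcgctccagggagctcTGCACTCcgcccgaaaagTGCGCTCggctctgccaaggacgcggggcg
Mt2, chr8:94172368-94172667, plus strand, metal response element core: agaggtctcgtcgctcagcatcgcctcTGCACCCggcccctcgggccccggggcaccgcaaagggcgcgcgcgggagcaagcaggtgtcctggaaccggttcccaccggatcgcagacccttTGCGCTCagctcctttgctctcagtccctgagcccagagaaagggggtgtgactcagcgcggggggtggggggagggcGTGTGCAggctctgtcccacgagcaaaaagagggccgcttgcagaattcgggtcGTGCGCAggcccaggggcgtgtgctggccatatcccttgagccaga
Cish, chr9:107296409-107296708, plus strand, STAT5 site: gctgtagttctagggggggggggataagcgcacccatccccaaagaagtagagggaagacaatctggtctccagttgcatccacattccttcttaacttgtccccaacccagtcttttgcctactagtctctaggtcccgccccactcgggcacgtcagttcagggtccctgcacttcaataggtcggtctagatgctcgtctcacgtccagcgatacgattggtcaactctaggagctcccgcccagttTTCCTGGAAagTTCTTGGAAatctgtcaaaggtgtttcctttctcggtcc
Ciart, chr3:95882179-95882478, minus strand, E-box: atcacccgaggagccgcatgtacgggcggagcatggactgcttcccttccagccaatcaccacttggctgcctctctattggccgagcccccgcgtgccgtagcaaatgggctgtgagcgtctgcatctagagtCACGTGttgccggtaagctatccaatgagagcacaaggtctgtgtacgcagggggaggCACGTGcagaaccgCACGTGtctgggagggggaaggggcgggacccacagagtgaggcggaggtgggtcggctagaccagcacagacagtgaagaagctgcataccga
Mt1 held 3 matches, Mt2 held 4, Cish held 2 and Ciart held 3. Of all 32851 such windows, 25.7% held the metal response element core, 8.3% the STAT5 site and 7.15% the E-box. These are matches of letters in a window, not measured sites.

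Cux2, which encodes a transcription factor of the female liver, lay at -6.66, -8.20, -6.57 and -7.86 in LFD mice 1 to 4 and at -0.55, -1.41, -1.52, -1.89 and -0.48 in LFD MTX50 mice 1 to 5. It rose by 6.15 (SE 0.54, limma adjusted p = 3.29e-05), the largest rise of the 15 named by size, although only 1 of the 4 LFD arrays had it well above background. The lowest treated mouse lay above every untreated one, which the rule that named these 15 genes required. At the other end Elovl3, which elongates very long chain fatty acids and is a male-biased gene, stood at 4.12, 2.46, 3.61 and 4.37 in LFD and at -3.51, -1.69, -2.60, -2.46 and -4.03 in LFD MTX50. It fell by 6.5 on the log2 scale (SE 0.61, limma adjusted p = 4.23e-05).

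**Figure D1:**
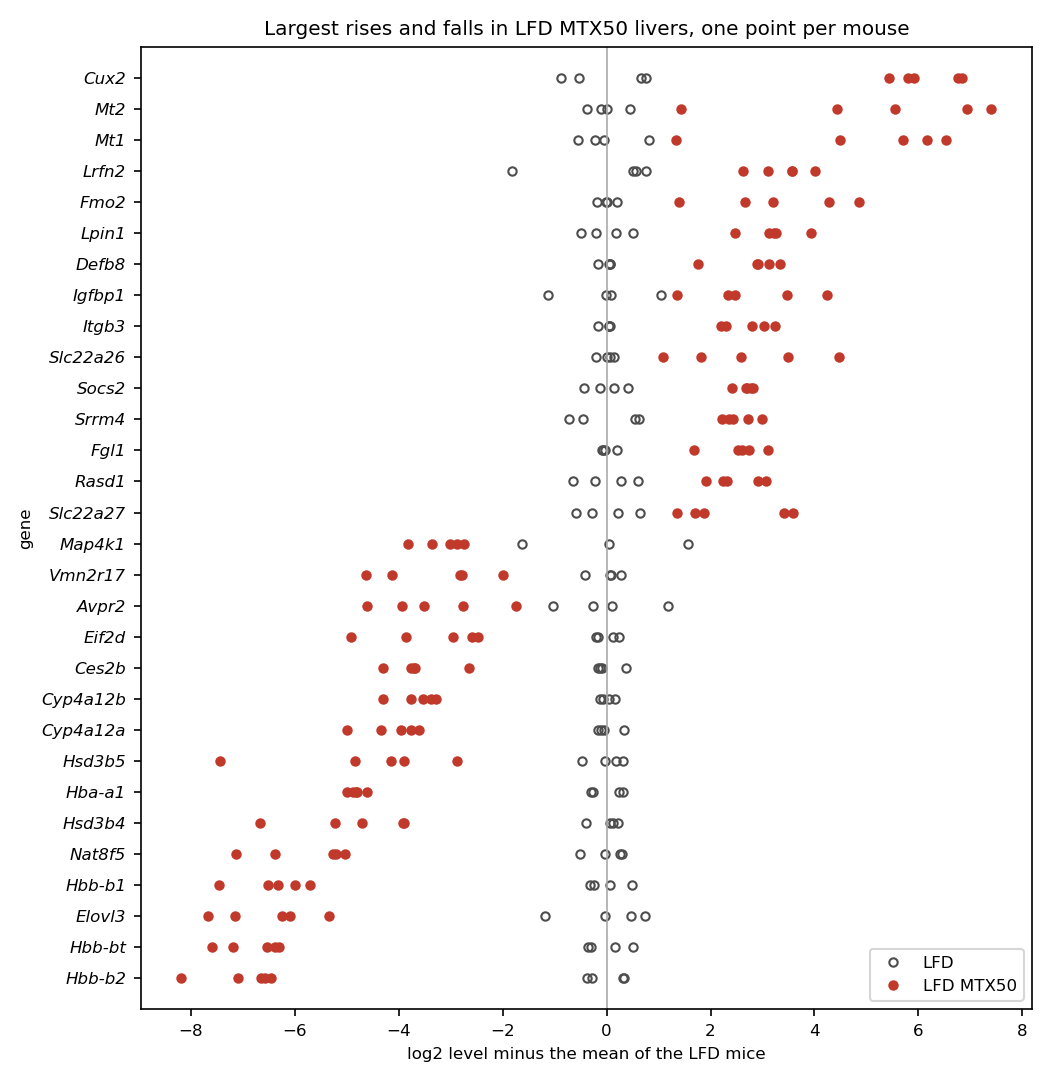
Level of each gene in each mouse minus the mean of the LFD mice (log2, horizontal axis) for the 15 largest rises and 15 largest falls; open circles are LFD mice (n = 4, with 1 value missing for Map4k1) and filled circles LFD MTX50 mice (n = 5). These genes were named by a rule that requires groups that do not overlap, and among them the treated mice spread most for Mt1, Mt2 and Hsd3b5.

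The 15 largest rises and 15 largest falls were taken among genes whose groups do not overlap and that all arrays of 1 group or more measured well above background, which leaves out larger differences such as that of Ciart. Beside Cux2, the rises held the metallothioneins Mt2 (5.15) and Mt1 (4.84), the synaptic adhesion gene Lrfn2 (3.38), the monooxygenase Fmo2 (3.28), the phosphatidate phosphatase Lpin1 (3.20), the defensin Defb8 (2.81), Igfbp1 (2.77), the integrin subunit Itgb3 (2.72), the transporters Slc22a26 (2.69) and Slc22a27 (2.39), Socs2 (2.68), the splicing factor Srrm4 (2.55), Fgl1 (2.53) and Rasd1 (2.49). A second probe for Mt1 and one for Itgb3 gave differences of 0.33 and 0.08 that did not pass, whereas second probes for Lpin1 (2.49) and Fgl1 (2.89) and both further probes for Socs2 (2.74 and 2.29) rose as well. The Igfbp1 call was lost when LFD mouse 2 was left out (adjusted p = 0.0702 by limma). Lrfn2 and Rasd1 were well above background on 2 of the 4 LFD arrays, so the sizes of their rises are uncertain.

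Among the falls were 4 globin genes, the male-biased Elovl3, Hsd3b5 (-4.64), Cyp4a12a (-4.13) and Cyp4a12b (-3.66), and the acetyltransferase family gene Nat8f5 (-5.80). The steroid dehydrogenase gene Hsd3b4 (-4.89), the carboxylesterase Ces2b (-3.62), the translation factor Eif2d (-3.36), the vasopressin receptor Avpr2 (-3.32), the receptor gene Vmn2r17 (-3.27) and the kinase Map4k1 (-3.16) made up the rest. Vmn2r17 was well above background on 1 of the 5 treated arrays and Hbb-b1 on 3, so the sizes of these falls are uncertain, and with normexp the Vmn2r17 difference was 0.48. Second probes for Hsd3b4 (0.05) and Eif2d (-0.23) did not pass. Near-identical paralogs, such as Hsd3b4 and Hsd3b5, Cyp4a12a and Cyp4a12b, and the globins, may share signal between their probes.

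Of 34 female-biased genes measured, 14 rose, 12 of them by at least 2-fold, and 0 fell, with a list median of 0.57. Of 29 male-biased genes, 14 fell, 12 of them by at least 2-fold, 3 rose and 12 did not pass, with a list median of -1.0. Fmo2 stood at -3.23, -2.84, -3.06 and -3.03 in LFD and 1.24, -0.37, 0.17, -1.65 and 1.83 in LFD MTX50. Sult3a1, a sulfotransferase, was not well above background on any LFD array and was at least 10.2-fold higher in LFD MTX50 (limma adjusted p = 0.0109), where 4 of 5 arrays measured it. For Fmo2, LFD MTX50 mouse 4 was the lowest treated mouse and mouse 5 the highest. Cyp39a1, an oxysterol hydroxylase of bile acid synthesis, rose by 2.12 (adjusted p = 0.00806), Atp6v0d2, a proton pump subunit, by 2.12 (adjusted p = 0.00173), and Trim24, a nuclear receptor cofactor, by 1.69 (adjusted p = 4.89e-04), all by limma.

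On the male-biased side, Cyp4a12a, an arachidonic acid hydroxylase, stood at 3.17, 3.12, 3.56 and 3.06 in LFD and at -0.72, -1.10, -0.39, -0.53 and -1.77 in LFD MTX50. The untreated livers spanned a narrow range. Every treated liver lay under it, which the rule that named this gene required. Mup21, a major urinary protein that carries pheromones, fell from between 6.99 and 7.34 in LFD to between 2.13 and 5.32 in LFD MTX50. Nudt7, a peroxisomal coenzyme A hydrolase, fell by 2.88 (limma adjusted p = 0.00407; a second probe, -1.88, did not pass), and Slco1a1, an organic anion transporter, fell by 2.29 (adjusted p = 0.00899). Cyp2d9, with 1 LFD value missing, fell by 1.22. For the falls of Mup21 and Hsd3b5 the lowest value of all belonged to LFD MTX50 mouse 5. The mean deviation over the male-biased list was between -0.98 and -1.91 in the 5 treated mice and between -0.11 and 0.12 in the untreated mice.

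**Figure D2:**
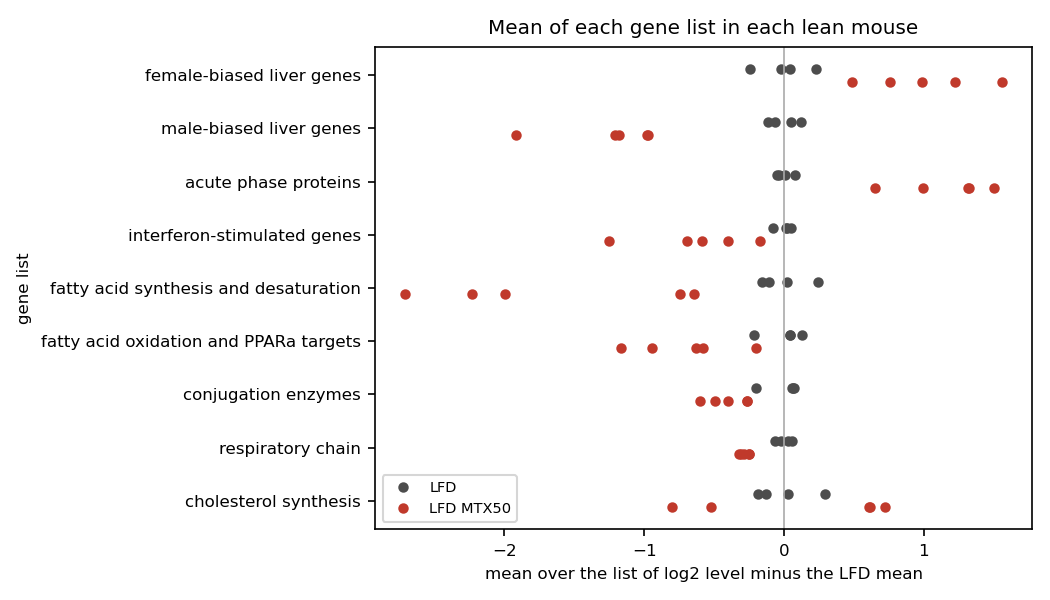
Mean over the genes of a list of the log2 level minus the LFD mean (horizontal axis), one point per mouse, for 9 gene lists; grey points are LFD (n = 4) and red points LFD MTX50 (n = 5). Treated mice lay apart from untreated mice for the sex-biased, acute phase, fatty acid synthesis and respiratory chain lists. They did so narrowly for interferon-stimulated genes and conjugation enzymes. The groups overlapped for fatty acid oxidation, and treated mice lay on both sides of the untreated mice for cholesterol synthesis.

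Both list counts rest on the spread between mice across slides. With slide as a random block 4 female-biased genes were still past the adjusted p as higher and 6 male-biased genes as lower. Quantile normalization left 11 and 13, and leaving out single mice 12 to 15 and 12 to 16. The 3 male-biased genes that rose were Socs2, Cish and Igfals, which are known targets of growth hormone, and that count was 1 or 2 without single mice. Igfals was chosen after its value was seen, and it rose by 0.51.

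Of 20 growth hormone signalling genes, 6 rose and 2 fell, the falls being close to the share over all genes (10.5%). With slide as a random block 1 rose and 0 fell, and 1 fell without LFD mouse 1, 3 or 4 or treated mouse 1 or 3. Socs2, a feedback inhibitor of the growth hormone receptor, stood at -1.10, -0.83, -1.38 and -1.67 in LFD and 1.43, 1.18, 1.53, 1.47 and 1.56 in LFD MTX50, and rose by 2.68 (SE 0.29, limma adjusted p = 1.40e-04). The treated mice lay close together. They lay above the untreated mice, which the rule that named Socs2 required. Socs3, which restrains cytokine receptors, rose by 1.42 (limma adjusted p = 0.00886), and the prolactin receptor gene Prlr rose by 1.33 (adjusted p = 0.00307). Igfbp1, which binds insulin-like growth factors, stood at 1.56, 0.33, 1.46 and 2.51 in LFD and 2.82, 3.80, 4.93, 3.93 and 5.71 in LFD MTX50.

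Stat5a, one of the 2 STAT5 genes, fell by 0.99 (limma adjusted p = 0.00584). Igf1, the main circulating product of growth hormone action, lay between 5.32 and 5.78 in LFD and 5.18 and 5.65 in LFD MTX50, a difference of -0.18 (limma adjusted p = 0.537). Further Igf1 probes gave -0.11 and 0.09, which did not pass, and 0.29, which did (limma adjusted p = 0.035). Cish, whose promoter window with 2 STAT5 matches is printed above, is another feedback inhibitor and stood at -2.33, 1.16, -1.57 and -2.84 in LFD and at 1.89, 1.55, -0.83, 1.11 and 0.97 in LFD MTX50. LFD mouse 2 lay inside the treated range, and the call (difference 2.33, limma adjusted p = 0.0359) was lost when any of 7 of the 9 mice was left out (adjusted p 0.0522 to 0.109).

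**Figure D3:**
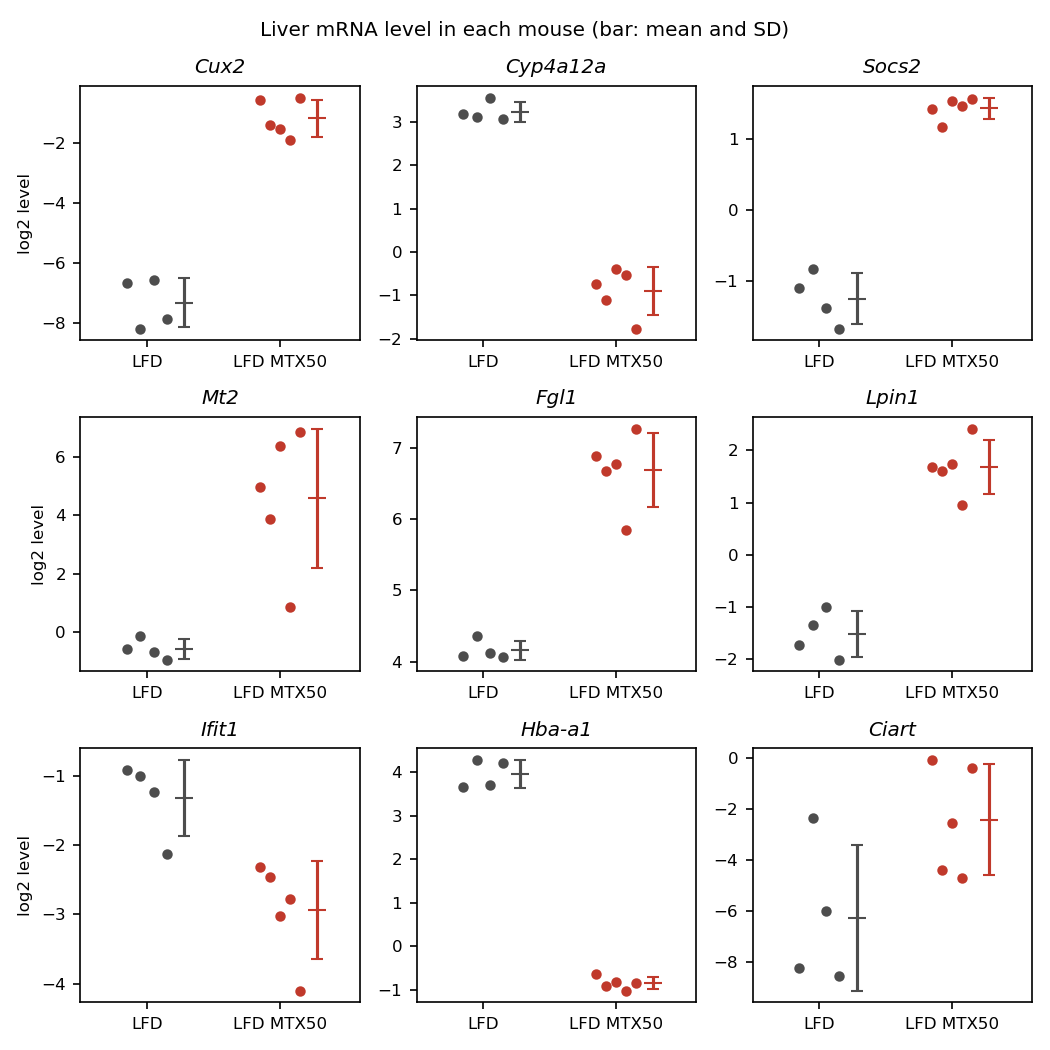
Liver mRNA level (log2, relative to the 75th percentile of the array) of 9 genes in each LFD (n = 4, grey) and LFD MTX50 (n = 5, red) mouse, with the mean and SD beside the points. All but Ifit1 and Ciart were named by a rule that requires groups that do not overlap, and for Ciart LFD mouse 2 lies above 3 of the treated mice.

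Of 28 acute phase genes, 14 rose, 9 of them by at least 2-fold, 0 fell and 14 did not pass, with a median of 0.88. The 2 largest were the metallothioneins, small cysteine-rich proteins that bind zinc and copper. Mt2 stood at -0.56, -0.11, -0.67 and -0.94 in LFD and at 4.97, 3.87, 6.37, 0.87 and 6.84 in LFD MTX50, and Mt1 followed the same order, with 2.29 in LFD MTX50 mouse 4 and 5.45 to 7.48 in the others. Mouse 4 was thus raised much less than the other treated mice for both genes whose promoter windows are shown. It still lay above every untreated mouse, which the rule that named both genes required. The rise of Mt2 was 5.15 with an SE of 1.08 (limma adjusted p = 0.00474).

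Lbp, which binds bacterial lipopolysaccharide, stood at -0.30, -0.31, -0.13 and 0.11 in LFD and at 1.67, 1.48, 1.81, 1.24 and 1.92 in LFD MTX50, and rose by 1.78 (SE 0.28, limma adjusted p = 0.00117). Apcs, the serum amyloid P component and a major acute phase protein of the mouse, rose by 1.93 (adjusted p = 0.00452), the protease inhibitor Serpina3n by 1.74 (adjusted p = 0.00676) and Itih3, an inter-alpha-trypsin inhibitor chain, by 1.49 (adjusted p = 0.0024). Fgl1, a hepatocyte-secreted protein that is no member of the list, rose by 2.53 (adjusted p = 4.10e-04) to levels between 5.85 and 7.27. For these 5 genes the treated and untreated mice did not overlap, but the rule that named Fgl1 required this. The others were picked as large changes past the adjusted p, so the lack of overlap is no separate result. Saa1, one of the strongest acute phase genes of the mouse, differed by 0.66 and did not pass (limma adjusted p = 0.492). Hamp, which encodes the iron hormone hepcidin, differed by 0.92 and did not pass (limma adjusted p = 0.13). Its LFD values of 5.65 to 6.03 nonetheless lay wholly under its treated values of 6.53 to 7.06. For Hamp the SD between lean mice was 0.17 untreated and 0.22 treated, against 0.61 and 1.24 on the high-fat diet. For Saa1 these SDs were 0.25 and 0.28, against 0.47 and 2.08. The shared fit pooled these spreads into SEs of 0.46 for Hamp and 0.71 for Saa1, so neither failure rests on the lean mice alone.

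The count of 14 was 14 under quantile normalization, 12 when scaled to the median of detected probes, 3 with normexp, 2 with slide as a random block and 12 to 14 without single mice. In the HFD mice, where 4.81% of all genes rose and 6.12% fell with treatment, 14 of the same 28 acute phase genes rose and 0 fell, and the effect differed between the diets for 1, beside 26.7% of all genes. Complement and coagulation genes had 14 of 36 higher and 3 lower, though 5 were higher when scaled to the median of detected probes, 1 with slide as a random block, 0 with normexp and 9 without any 1 of LFD mice 1 to 3 or LFD MTX50 mice 1 and 3. The falls numbered 1 without LFD mouse 2, 3 or 4 or treated mouse 1 or 5. Among metal and iron genes, 8 of 22 rose and 3 fell, or 1 and 0 with slide as a random block. Id1 and Smad7, both targets of the bone morphogenetic protein signal that controls hepcidin, rose by 2.29 (adjusted p = 0.0148) and 1.27 (adjusted p = 0.0112) by limma.

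**Figure D4:**
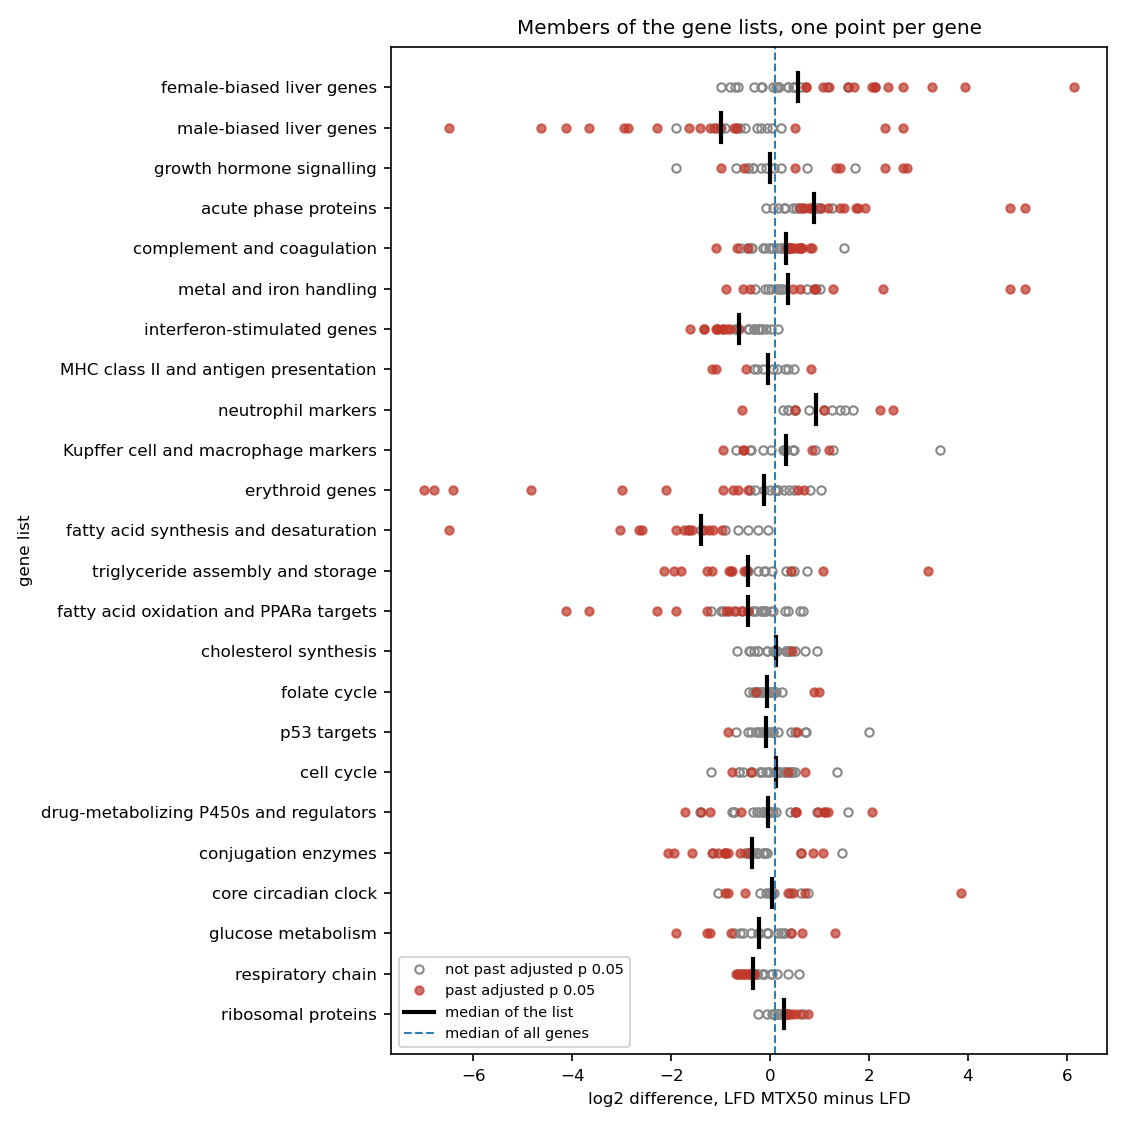
Log2 difference between LFD MTX50 and LFD (horizontal axis) of each measured gene of 24 gene lists; filled points passed an adjusted p of 0.05, open points did not, the black bar is the list median and the dashed line the median of all genes (0.11). Most acute phase genes lie to the right of that line, and interferon-stimulated, fatty acid synthesis and male-biased genes mostly to the left.

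Of 25 interferon-stimulated genes measured, 11 fell, 6 of them by at least 2-fold, 0 rose and 14 did not pass, with a median of -0.62. Ifit1, an antiviral RNA-binding protein, stood at -0.92, -1.0, -1.23 and -2.12 in LFD and at -2.32, -2.46, -3.02, -2.78 and -4.11 in LFD MTX50, and fell by 1.62 (SE 0.40, limma adjusted p = 0.00981). Ifit3 fell by 1.33 (adjusted p = 0.0183). In the HFD mice 1 of the same 25 genes rose and 0 fell, and for 8 the effect of treatment differed between the diets, a share close to the 26.7% of all genes. Ifit1 was among them (lean effect minus HFD effect -2.19, limma adjusted p = 0.0129). The count of 11 was the same under quantile normalization and median scaling, 1 with normexp, 2 with slide as a random block, and 7 without LFD mouse 1, LFD mouse 2 or LFD MTX50 mouse 5.

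Marker genes of blood and immune cells did not move as one. Of 25 erythroid genes 10 fell and 2 rose, or 1 and 0 with slide as a random block and 3 and 0 with normexp. The rises numbered 0 or 1 without any 1 of LFD mice 2 to 4 or LFD MTX50 mice 1, 2, 3 and 5. Hba-a1, an alpha globin, stood at 3.66, 4.29, 3.71 and 4.21 in LFD and at -0.65, -0.92, -0.84, -1.03 and -0.85 in LFD MTX50, while the beta globins Hbb-b2, Hbb-bt and Hbb-b1 fell by 7.0 (limma adjusted p = 0.00583 for Hbb-b2), 6.80 and 6.40. Alas2, the first enzyme of heme synthesis in red cell precursors, fell by 2.99 (SE 0.44, limma adjusted p = 8.93e-04). The rule that named these 4 globins required groups that do not overlap, and the groups lay more than 4 log2 units apart. The SD between treated mice was 0.14 for Hba-a1 and 0.71, 0.56 and 0.67 for Hbb-b2, Hbb-bt and Hbb-b1. In LFD mice these SDs were 0.33, 0.38, 0.41 and 0.37. Summed on the linear scale, which weighs the brightest probes most, the 25 erythroid genes gave 168.8 to 211.1 in LFD livers and 100.8 to 147.0 in treated livers. In treated livers the 4 globins and Alas2 all lay under 0 on the log2 scale, so nearly all of that sum came from other members. The part of red cells or their precursors in the liver was not tested.

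Of 16 neutrophil markers 4 rose and 1 fell, and with slide as a random block or normexp 0 did either. The list median was 0.94 and 15 of the 16 differences were above 0. The mean over the list separated the groups, at -0.07 to 0.09 in LFD mice and 0.53 to 1.43 in treated mice, while the sum on the linear scale, which weighs the brightest probes most, gave overlapping ranges of 127 to 141 and 134 to 143. Mmp8, a neutrophil collagenase, was not well above background on any LFD array and was at least 2.65-fold higher in LFD MTX50, where 3 of 5 arrays measured it (limma adjusted p = 0.0135). The defining markers S100a8 and S100a9 differed by 1.67 and 1.42 without passing (adjusted p = 0.262 and 0.324 by limma). Their values were high in LFD MTX50 mice 1, 2 and 4 and within the untreated range or under it in mice 3 and 5.

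Kupffer cell and macrophage markers had 2 of 21 higher and 3 lower, or 0 of either with slide as a random block. The median difference was 0.32, with 14 of 21 above 0, and the mean over the list was -0.27 to 0.13 in LFD mice and -0.08 to 0.92 in treated mice. The linear sum went the other way, at 85.7 to 102 in LFD livers against 61.7 to 79.8 in treated livers. Without LFD mouse 1 the falls numbered 1, and without LFD mouse 1 or LFD MTX50 mouse 1, 2 or 5 the rises numbered 1. Cd68, a lysosomal protein of macrophages, fell by 0.94 (limma adjusted p = 0.0168; 0.05001 without LFD mouse 1), whereas Clec4f, which marks resident Kupffer cells, differed by 0.33 (adjusted p = 0.302). Of 12 genes of MHC class II and antigen presentation 3 fell and 1 rose, with sums of 11.1 to 21.6 against 7.67 to 12.01. The falls numbered 0 without LFD mouse 1 or LFD mouse 4, and 1 without LFD mouse 3 or LFD MTX50 mouse 1 or 3. H2-Eb1, a class II chain, fell by 1.18 (limma adjusted p = 0.02), but not without LFD mouse 1 or LFD mouse 4 (adjusted p 0.0525 to 0.0560). Of 21 lymphocyte markers 5 rose and 0 fell, or 3 rose without any 1 of LFD mice 2 to 4 or LFD MTX50 mice 1, 3 and 5, with summed levels of 129 to 139 in LFD and 105 to 143 in LFD MTX50.

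Stellate cell and fibrosis genes had 4 of 27 higher and 0 lower, under the shares of all genes (17.6% and 10.5%). The rises numbered 2 under quantile normalization and 0 with normexp or with slide as a random block. Bgn, the matrix proteoglycan biglycan, rose from between 0.35 and 0.85 in LFD to between 1.35 and 1.92 in LFD MTX50, by 1.12 (limma adjusted p = 0.00263). Col1a1, the main chain of scar collagen, differed by -0.79 (adjusted p = 0.359). Hepatocyte identity genes had 4 of 26 higher and 1 lower, again under the shares of all genes. Only 2 were higher without LFD mouse 1 or 3 or treated mouse 1, 2 or 3. Of 12 cholangiocyte markers 3 rose. The list of fat, muscle and pancreas genes, kept as a check on neighbouring tissue, had 5 of 17 higher and 0 lower (3 higher without LFD mouse 1, 2 or 4 or treated mouse 3, and 8 without LFD MTX50 mouse 4), with summed levels of 10.73 to 11.56 in LFD and 9.85 to 14.7 in LFD MTX50.

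Of 19 genes of fatty acid synthesis and desaturation 12 fell, 11 of them by at least 2-fold, and 0 rose. Me1, the malic enzyme that supplies NADPH for this pathway, stood at 4.06, 4.13, 4.64 and 4.35 in LFD and at 2.35, 3.31, 2.30, 4.03 and 1.61 in LFD MTX50, and fell by 1.58 (limma adjusted p = 0.0102). Acly, which makes cytosolic acetyl-CoA, fell by 1.23 (adjusted p = 0.00558), although a second, dimmer probe gave -0.29 and did not pass. Elovl5, an elongase of polyunsaturated fatty acids, fell by 1.91 (adjusted p = 0.0045). LFD MTX50 mouse 4 was the treated mouse nearest the untreated range for Me1. The count fell from 12 to 7 without LFD MTX50 mouse 3 and to 1 with slide as a random block. The 1 gene left was Elovl3, which is counted in this list as well as among the male-biased genes.

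Of 10 lipogenic regulators 1 rose and 2 fell, or 1 fell without any mouse except LFD MTX50 mouse 4. Srebf1, the lipogenic sterol regulatory factor, differed by -0.88 with treated mice from -2.86 to 0.49 (limma adjusted p = 0.266). Mlxipl, the carbohydrate response factor, differed by -0.31 on its brightest probe (adjusted p = 0.148) and by 0.66 on another (adjusted p = 0.015). Insig2, which retains the sterol sensor in the endoplasmic reticulum, fell by 1.33 (adjusted p = 0.005 by limma) on one probe and by 1.09 on another. Of 23 cholesterol synthesis genes and regulators 1 rose and 0 fell. The rises numbered 2 without LFD MTX50 mouse 3, 4 without LFD MTX50 mouse 4 and 0 without any other mouse, and 1 fell without LFD MTX50 mouse 2.

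Of 23 genes of triglyceride assembly and storage 10 fell, 3 rose and 10 did not pass, or 3 fell and 1 rose with slide as a random block and 2 and 1 with normexp. Fitm1, which takes part in lipid droplet formation, stood at -0.50, -0.58, -0.30 and -1.04 in LFD and at -2.78, -2.48, -2.62, -2.25 and -3.63 in LFD MTX50, and fell by 2.15 (SE 0.34, limma adjusted p = 0.00121). Mogat1, a monoacylglycerol acyltransferase, fell by 1.93 (adjusted p = 0.00695), the lipid droplet coat gene Plin2 by 1.27 (adjusted p = 0.0124) and G0s2, an inhibitor of adipose triglyceride lipase, by 1.80 (adjusted p = 0.0146). Lpin1 went the other way, from -1.72, -1.34, -1.01 and -2.01 in LFD to 1.69, 1.61, 1.73, 0.95 and 2.42 in LFD MTX50. It rose by 3.20 (SE 0.44, limma adjusted p = 5.89e-04), and its paralog Lpin2 rose by 1.08 (adjusted p = 0.00269). For both lipins the effect differed between the diets (lean effect minus HFD effect 2.48 and 1.44, limma adjusted p = 0.0115 and 0.00570).

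Fatty acid oxidation and PPARα target genes had 10 of 30 lower and 0 higher, with 3 lower under slide as a random block and 3 with normexp. The peroxisomal thiolase Acaa1b stood at 4.49, 4.48, 4.58 and 4.00 in LFD and at 1.51, 2.31, 2.84, 3.03 and 0.82 in LFD MTX50, and fell by 2.28 (limma adjusted p = 0.00308). Vnn1, a pantetheinase, fell by 1.91 (adjusted p = 0.00676) and Fabp1, the liver fatty acid binding protein, by 0.90 (adjusted p = 0.0109). Cyp4a12a and Cyp4a12b are counted in this list as well as among the male-biased genes. Of 27 respiratory chain genes 16 fell, 0 of them by 2-fold, such as Sdha (-0.70, limma adjusted p = 0.00292) and Cycs (-0.59, adjusted p = 0.00551), and 0 rose. That count was 8 under quantile normalization, 0 with normexp or with slide as a random block, and 8 without LFD mouse 2.

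Of 27 folate cycle genes 2 rose and 1 fell, the fall being lost without any 1 of LFD mice 1 to 3 or LFD MTX50 mice 1, 3 and 5. Tyms, thymidylate synthase, differed by -0.31 (limma adjusted p = 0.165), and Fpgs, which adds glutamates that hold folates and methotrexate in the cell, by -0.13 (adjusted p = 0.558). The 2 that rose belong to the mitochondrial arm. Slc25a32, the mitochondrial folate carrier, stood at -2.47, -2.31, -2.34 and -2.58 in LFD and at -1.65, -1.57, -1.55, -1.72 and -1.22 in LFD MTX50, and rose by 0.88 (SE 0.12, limma adjusted p = 7.01e-04).

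Mthfd1l, which releases formate in mitochondria, rose by 0.99 (limma adjusted p = 0.0119) and by 1.26 on a second probe. In the methionine cycle 2 of 17 genes rose. Mat1a, which makes S-adenosylmethionine in the adult liver, rose by 0.90 (adjusted p = 0.00827), and Ahcy, which hydrolyses S-adenosylhomocysteine, by 0.82 (adjusted p = 0.00288), both by limma. Of 14 methotrexate transporters and related genes 3 fell and 0 rose. Abcg2, an efflux pump that carries methotrexate, stood at 3.00, 2.65, 2.99 and 2.98 in LFD and at 1.39, 1.28, 1.51, 1.67 and 1.27 in LFD MTX50, and fell by 1.48 (SE 0.15, limma adjusted p = 6.62e-05).

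Of 24 p53 targets 1 rose and 1 fell, or 2 and 2 without LFD MTX50 mouse 4 and 1 and 2 without LFD MTX50 mouse 5. Of 33 cell cycle genes 2 rose and 2 fell, but 0 or 1 rose without any mouse except LFD MTX50 mouse 4, and 0 or 1 fell without LFD mouse 1, 2 or 3 or treated mouse 1, 2 or 3. Cdkn1a, the cell cycle inhibitor p21, stood at -3.75, -4.60, -3.61 and -4.03 in LFD and at -2.64, -1.64, -1.41, -3.50 and -0.80 in LFD MTX50 (difference 2.00, limma adjusted p = 0.0509). On this probe every treated mouse lay above the untreated mice, LFD MTX50 mouse 4 barely so, but Cdkn1a was chosen after its values were seen. A second Cdkn1a probe gave 0.42 and did not pass (limma adjusted p = 0.108). Plk2, a p53-responsive kinase, fell by 0.86 (limma adjusted p = 0.00885), but the sign of its difference changed with normexp. Mki67, a marker of cycling cells, differed by -0.37 (limma adjusted p = 0.51).

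Of 28 genes of the unfolded protein and amino acid stress responses 3 rose and 0 fell. Chac1, which degrades glutathione, rose by 1.40 (limma adjusted p = 0.00137). Of 12 cytosolic heat shock genes 2 fell and 0 rose, among them Hspb1 by 1.66 (adjusted p = 0.00144). Among 20 NRF2 antioxidant targets 1 rose and 6 fell. Nqo1, a quinone reductase, rose by 0.84 (adjusted p = 0.00353). The NRF2 count of falls was 1 to 7 without single mice, at 1 without LFD mouse 3, 3 without LFD mouse 1, LFD mouse 4 or LFD MTX50 mouse 1, and 0 with slide as a random block.

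Genes of drug and bile acid metabolism moved in both directions. Of 33 cytochrome P450 genes and regulators 7 rose and 4 fell, close to the shares of all genes (17.6% and 10.5%). Cyp1a2, the main hepatic enzyme for caffeine and arylamines, stood at 0.96, 1.13, 0.91 and 1.25 in LFD and at -1.13, -0.20, -0.42, 0.10 and -1.68 in LFD MTX50, and fell by 1.73 (SE 0.34, limma adjusted p = 0.0036). Its relative Cyp1a1 fell by 1.39 (adjusted p = 0.00954), but the sign of its difference changed with normexp. Cyp3a13 rose by 1.12 (adjusted p = 0.00594), although a second probe (0.37) did not pass. Cyp2c70, a bile acid hydroxylase of rodents, rose by 1.10 (adjusted p = 0.00407). Leaving out LFD MTX50 mouse 5 took the count of higher P450 genes from 7 to 4, and slide as a random block left 0 higher and 1 lower.

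Conjugation enzymes had 11 of 33 lower and 3 higher, or 2 and 0 with slide as a random block. Gstp1, a glutathione transferase, stood at 5.90, 5.11, 4.90 and 5.70 in LFD and at 3.66, 3.04, 3.73, 4.05 and 2.25 in LFD MTX50, and fell by 2.06 (limma adjusted p = 0.00121). Its effect differed between the diets (lean effect minus HFD effect -2.29, adjusted p = 0.00588). Ugt2b1, a glucuronosyltransferase, fell by 1.93 (adjusted p = 0.0045). Of 22 bile acid genes 2 rose and 2 fell, under the shares of all genes (17.6% and 10.5%). Only 1 rose without any LFD mouse or LFD MTX50 mouse 1, 2 or 3. Cyp8b1, which sets the cholic acid share, fell by 1.37 (adjusted p = 0.00684) and the anion carrier Slco1a4 rose by 1.18 (adjusted p = 8.79e-04), while Cyp7a1, the rate-limiting enzyme of bile acid synthesis, differed by 0.05 (adjusted p = 0.964) with values from -2.26 to 2.13 in treated mice.

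Of 23 glucose metabolism genes 3 rose and 4 fell. Pck1, the first committed enzyme of gluconeogenesis, rose by 1.31 (limma adjusted p = 0.00527), while G6pc, the last enzyme of the same pathway, fell by 1.21 (adjusted p = 0.0176). Ppp1r3c, which targets a phosphatase to glycogen, stood at 3.16, 2.27, 2.51 and 2.76 in LFD and at -0.08, 0.44, 0.60, 1.05 and 1.82 in LFD MTX50, and fell by 1.91 (adjusted p = 0.0027 by limma). The secreted protease inhibitor Fetub rose by 1.02 (adjusted p = 0.00127) and the angiotensin precursor Agt by 1.00 (adjusted p = 0.00411). Ribosomal protein genes had 6 of 21 higher and 0 lower, but 2 higher without LFD mouse 2 or 3 or when scaled to the median of detected probes, and 0 with slide as a random block.

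For 5 clock genes, Dbp and Arntl among them chosen after their values were seen, 1 untreated mouse lay apart from the other untreated mice. Of 17 core clock genes 4 rose and 3 fell, and of 20 clock output genes 4 rose and 1 fell. Ciart, well above background on 2 of the 4 LFD arrays, is a repressor of the clock whose promoter window with 3 E-boxes is printed above, and it stood at -8.24, -2.37, -5.98 and -8.54 in LFD and at -0.07, -4.39, -2.57, -4.72 and -0.40 in LFD MTX50. LFD mouse 2 also had the highest untreated level of the output genes Dbp (2.23 against -0.23 to 0.19), Tef (3.50 against 1.32 to 2.03) and Usp2 (-1.66 against -4.31 to -3.76), and the lowest of Arntl (-1.75 against -0.44 to -0.01), the activator of the clock. For all 5 of these genes, and for Cish, LFD mouse 2 lay inside the range of the treated mice. Over the whole core clock list it was not alone, as the mean deviation was 0.28 in LFD mouse 2 and -0.26 in LFD mouse 4. Over the clock output list the mean was 0.41 in LFD mouse 2 and -0.29 to -0.04 in the other LFD mice. The labels give no time of day for the harvest.

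Tef rose by 1.49 (limma adjusted p = 0.00839). The Ciart difference of 3.85 (adjusted p = 0.0217) was lost without LFD mouse 1, LFD mouse 4 or LFD MTX50 mouse 1, and the Usp2 difference of 2.24 (adjusted p = 0.0474) without any of 6 of the 9 mice, with adjusted p by limma of 0.0523 to 0.0695 and 0.0923 to 0.12. Dbp and Arntl did not pass on their brightest probes (0.37 and -1.05, adjusted p = 0.587 and 0.0962), nor did Per1 (-0.20, adjusted p = 0.596). Without LFD mouse 1 or LFD mouse 4 the count of core clock genes that were higher was 0, and without LFD mouse 3 or LFD MTX50 mouse 1 or 3 it was 1. Higher output genes numbered 2 without LFD mouse 1, 3 or 4 or treated mouse 1, 3 or 5, and lower ones 3 without LFD mouse 2 and 2 without LFD MTX50 mouse 4. With slide as a random block 0 clock genes of either list passed.

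The response to methotrexate differed between the diets for 5244 genes (26.7%) on their brightest probe, and for 3382 of these the lean effect was the larger. Counted on any probe, the 6260 genes became 1589 with slide as a random block and 0 with normexp. Cux2 rose by 6.15 in lean mice and differed by 1.43 in HFD mice (limma adjusted p = 0.089), a lean effect minus HFD effect of 4.72 (SE 0.77, adjusted p = 0.00477). Elovl3 fell by 6.5 in lean mice and differed by -1.83 in HFD mice (difference of effects -4.67, adjusted p = 0.00518), and Nat8f5 fell in both, by 5.80 and 2.58 (difference of effects -3.22, adjusted p = 0.00623). The effect differed between the diets for 11 of 34 female-biased genes and 8 of 29 male-biased genes. Both shares lay close to that of all genes (26.7%). In HFD mice 1 female-biased gene rose and 1 fell, and 1 male-biased gene rose and 2 fell.

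**Figure D5:**
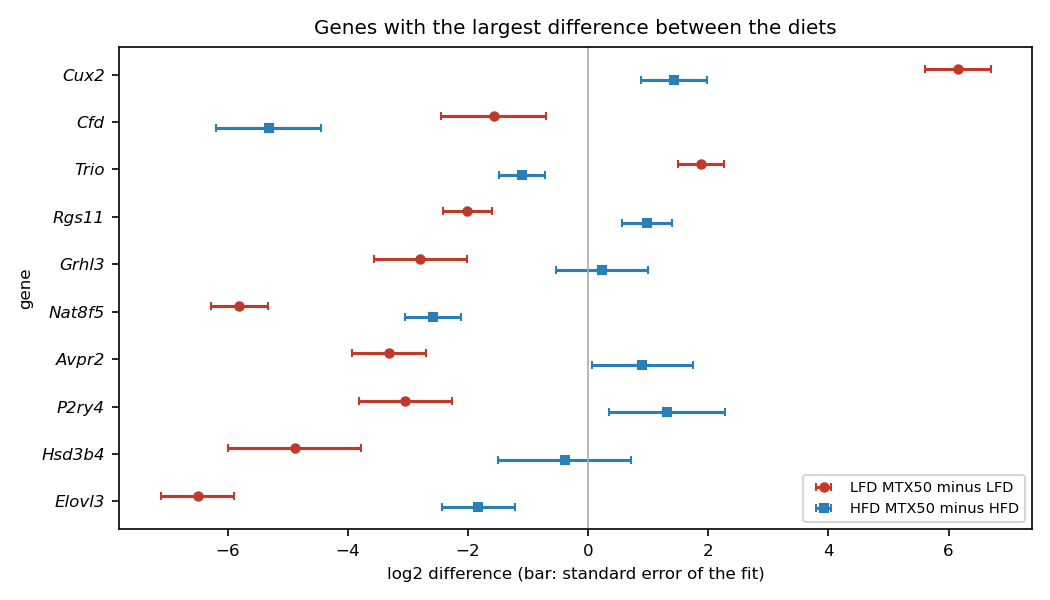
Log2 difference between treated and untreated mice (horizontal axis, bar: standard error of the fit) in low-fat-fed (red circles) and high-fat-fed (blue squares) mice for the 10 genes with the largest difference between these effects. Cfd lies furthest from 0 in high-fat-fed mice, while Trio, Rgs11, Grhl3, Avpr2 and P2ry4 have estimates of opposite sign on the 2 diets. Avpr2 had values in only 2 HFD and 3 HFD MTX50 mice. Its difference of 0.90 in high-fat-fed mice did not pass (limma adjusted p = 0.486).

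The remaining genes with the largest differences between the diets were less tied to known liver functions. Trio, a guanine nucleotide exchange factor, rose by 1.88 in lean mice, but 2 further probes gave -0.27, which did not pass, and -0.32, which did. Rgs11, a regulator of G protein signalling, fell by 2.01 (limma adjusted p = 0.00415), and the transcription factor gene Grhl3 by 2.79 (adjusted p = 0.016). P2ry4, a nucleotide receptor, fell by 3.05 (adjusted p = 0.0124) with LFD mouse 4 (-2.33) inside the treated range of -5.55 to -2.15. Cfd, the complement protease adipsin made by fat cells, differed by -1.57 in lean mice (adjusted p = 0.176) and fell by 5.32 in HFD mice (adjusted p = 0.00666).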

How the data were processed

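Total RNA of 18 mouse livers had been labelled with Cy3 and hybridised to one-colour 4x44K arrays. The deposited intensities, per the file headers, are processed signals from which the authors' scanner software had removed background and spatial trends within each array, with no normalization between arrays; the submitters' processing notes name Agilent Feature Extraction 10.7.3.1. The table of the series served as an alternative only: set against each array's scanner values, it held the deposited background-subtracted intensity on a linear scale, not centred and not normalized between arrays.

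From the scanner files, outlier-marked and control spots were left out, spots of 1 probe were averaged, and each array's 75th percentile of log2 processed signal was subtracted. The 35746 probes well above background on at least 4 arrays were fitted in limma 3.58.1 (R 4.3.3) with 4 groups, and p-values were adjusted over all probes by Benjamini-Hochberg. Every adjusted p in the text is from limma. A gene was read on its brightest probe, and called changed at an adjusted p under 0.05, with a 2-fold change where stated. No spot was saturated. The number of arrays limits precision. A bound on a fold was set by the dimmest probe well above background on each array. The fit was tested on simulated data.

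Mice are separate animals, 1 array each. Replicate numbers do not pair them: the deviations of same-numbered mice correlated at -0.07, -0.03, 0.25 and 0.23. Genes named were the 15 largest rises and falls with groups that do not overlap and that all arrays of 1 group or more measured well above background, members of each gene list by size or signal, and the 10 largest differences between diets. Atp6v0d2, Trim24, Acly, Me1, Srebf1, Lpin2, Cyp7a1, Tyms, Fpgs, Cdkn1a, Mki67, Saa1, S100a8, Clec4f, Col1a1, Arntl, Dbp and Cyp2c70 were chosen after their values were seen, and all members and gene lists with earlier results of these data known. Alternatives covered background, normalization, scaling, filter, outlier spots, variance model, threshold, samples fitted, a t-test, slide, replicate block, probe rule and single mice. The normexp model used median spot and local background signals in place of the planned mean signals. Mice on the high-fat diet entered the shared fit and its spread, the probe filter and the choice of brightest probe. Their own results were described only for the difference between diets, apart from the spread of Saa1 and Hamp. A few genes are not reported here.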

Additional observations from a re-analysis of the deposited data

Results flagged for a closer look

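For 16 values, 6.84% of those checked over sets of 4 or 5 mice, 1 mouse lay further from the rest of its group than Dixon's criterion allows, and chance marks about 1 in 20 sets. The log2 levels were Lrfn2 in LFD mouse 1 (-8.59), Defb8 in LFD mouse 4 (-5.17), Defb8 in LFD MTX50 mouse 4 (-3.23), Itgb3 in LFD mouse 2 (-2.40), Ces2b in LFD mouse 3 (1.34), Mup21 in LFD MTX50 mouse 5 (2.13), Acly in LFD mouse 3 (5.66) and Acly in LFD MTX50 mouse 3 (3.06), and Cyp7a1 in LFD MTX50 mouse 4 (-2.26), Abcg2 in LFD mouse 2 (2.65), Plk2 in LFD mouse 2 (-2.62), Apcs in LFD mouse 3 (-0.01), Arntl in LFD MTX50 mouse 1 (-3.05), Dbp in LFD MTX50 mouse 1 (2.46), Per1 in LFD mouse 4 (1.81) and Pck1 in LFD mouse 2 (4.34). LFD mouse 2 was marked 4 times, more often than any other mouse.

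For 46 of the named genes the effect of methotrexate differed between the diets by the limma contrast of the 2 effects. For Avpr2 this contrast had values in only 2 HFD and 3 HFD MTX50 mice. The lean effect minus the HFD effect (log2) was positive for Cux2 (4.72), Lrfn2 (2.96), Fmo2 (2.68), Lpin1 (2.48), Defb8 (1.69), Slc22a26 (2.54), Socs2 (1.74), Slc22a27 (2.66), Atp6v0d2 (1.74), Trim24 (0.96), Lpin2 (1.44), Slco1a4 (1.38), Mthfd1l (1.22), Slc25a32 (0.79), Ahcy (1.13), Bgn (1.65), Tef (1.45), Nqo1 (0.90), Pck1 (1.12), Agt (0.81), Chac1 (1.12), Cfd (3.74) and Trio (2.98). It was negative for Elovl3 (-4.67), Nat8f5 (-3.22), Hsd3b4 (-4.49), Cyp4a12a (-2.40), Cyp4a12b (-2.26), Avpr2 (-4.22), Mup21 (-2.80), Stat5a (-1.10), Acly (-1.34), Mlxipl (-0.77), Tyms (-0.67), Abcg2 (-1.10), Plk2 (-0.90), Ifit1 (-2.19), Cd68 (-1.46), Alas2 (-1.75), Gstp1 (-2.29), Ppp1r3c (-1.85), Sdha (-0.61), Hspb1 (-1.52), P2ry4 (-4.36), Grhl3 (-3.02) and Rgs11 (-2.99).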

How the results depend on the processing

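Of 1138 genes changed in LFD MTX50 (660 higher, 482 lower), normexp background correction left 273 (97 higher, 176 lower) and slide as a random block 191 (115 higher, 76 lower), while the adjusted p with no fold threshold gave 6511 (4356 higher, 2287 lower). Genes higher numbered 261 under quantile normalization, 427 when scaled to the median of detected probes and 380 over probes above background on all arrays, where 47.3% of changed genes were higher against 57.8%. The difference between the diets held on some probe for 0 genes with normexp, 4006 with quantile normalization and 1589 with slide as a random block, against 6260. Without single mice the counts ran from 844 to 1434 changed, 447 to 933 higher, 385 to 524 lower and 4533 to 6630 for the diets. Leaving out LFD MTX50 mouse 3 gave 447 higher genes. The replicate block gave 1132 changed genes, and the methods' t-test with Benjamini-Hochberg 895. With normexp, Vmn2r17 (0.48), Plk2 (0.28) and Cyp1a1 (0.80) changed sign. The cause was not tested. Of 98 named genes past the adjusted p, 42 were still past it with normexp, 30 with slide as a random block, 95 with quantile normalization, 97 with the replicate block and 93 to 97 without single mice. Signal over background limits Cux2, Lrfn2, Rasd1, Ciart, Sult3a1 and Mmp8 in LFD, and Vmn2r17, Hbb-b1, Sult3a1 and Mmp8 in LFD MTX50.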
